A study of Mus musculus with 24 samples.

Results

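The 9 genes described here are Cs, Idh3a, Idh3b, Idh3g, Ogdh, Sucla2, Suclg1 and Mdh2, which encode enzymes of the tricarboxylic acid (TCA) cycle, and Mdh1, the cytosolic counterpart of Mdh2. The rule lists them by gene symbol and uses no measured value, although the list was drawn up with earlier results of these data known. All 9 had a row among the 14785 genes of the deposited table, and no library listed any of them at 0. Bulk RNA sequencing was done on polyA-selected RNA of cortical kidney from male C57/BL6 mice, in 24 libraries from 6 groups of 4 animals. The label age was 8 weeks in every group, and 4 of 10 animals per group had been selected for sequencing. Sham-operated mice were the controls. In UUO2 and UUO7 1 ureter was ligated for 2 and 7 days. In R1W, R2W and R4W the ureter was reimplanted after a ligation of 7 days, and the kidney was taken after a recovery of 1, 2 and 4 weeks. No transgene or drug is given for any group. The label of R4W replicate 2 names 4 weeks in its title and 2 weeks in its treatment field, and it was kept in R4W.

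The TCA cycle oxidises acetyl groups in the mitochondrial matrix, releases carbon dioxide and passes electrons to the respiratory chain. Its substrates also feed glucose synthesis, ammonia production and amino acid metabolism, which are tasks of the kidney. The proximal tubule, which makes up much of the cortex, is rich in mitochondria and draws most of its energy from oxidation rather than from glycolysis.

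Cs encodes citrate synthase, which joins oxaloacetate and acetyl-CoA at the entry of the cycle (chromosome 10, 128337734 to 128362479, + strand, mm10). Idh3a (chromosome 9, 54586334 to 54604661, +), Idh3b (chromosome 2, 130279309 to 130284547, -) and Idh3g (chromosome X, 73778963 to 73786897, -) encode the catalytic alpha subunit and the beta and gamma subunits of the NAD-dependent isocitrate dehydrogenase. Ogdh (chromosome 11, 6291633 to 6356642, +) encodes the E1 subunit of the oxoglutarate dehydrogenase complex. Suclg1 (chromosome 6, 73248382 to 73276911, +) encodes the alpha subunit of succinyl-CoA ligase. Sucla2 (chromosome 14, 73525319 to 73596142, +) encodes the beta subunit that makes the enzyme ADP-forming, while Suclg2, which is not among the 9, encodes the GDP-forming beta subunit. Mdh2 (chromosome 5, 135778480 to 135790398, +) encodes the malate dehydrogenase of the matrix. Mdh1 (chromosome 11, 21556787 to 21572367, -) encodes the cytosolic malate dehydrogenase, an arm of the malate-aspartate shuttle rather than of the cycle itself.

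RefSeq promoter windows of the 9 genes (GRCm38.p6, 250 bases before to 50 after a start site) were searched for 4 short motifs on both strands. Windows matched 8 of the 9 genes, 13 windows in all. Idh3a is named only. The motif of nuclear respiratory factor 1 (GCGCANGCG), a factor known for mitochondrial genes, occurred in 6.25% of 32851 windows. Of the 13 member windows 3 held it, for Ogdh and Sucla2. Other Ogdh windows lacked it, and in both genes the site lies downstream of the gene start given above. The short stretches around the motif are shown because no other member had a window with it. The motif is in capitals, on the + strand for Ogdh (2 overlapping windows, with its first base 15 or 36 bases before the start site) and on the - strand for Sucla2 (16 bases before).
Ogdh, chr11:6292533-6292561, + strand: taggtgttgtGCGCATGCGtaactcaact
Sucla2, chr14:73552760-73552785, + strand: tgcgtctctgCGCCTGCGCggtgccc
The CCAAT motif, searched as ATTGG, occurred in 37.4% of all windows and in 9 of the 13 member windows, for Cs, Idh3b, Mdh1 and Ogdh. The oestrogen-related receptor element (TCAAGGTCA, 0.423% of windows) and the GABP motif (CCGGAAGT, 3.89%) were in none of the 13 windows. A match describes letters only.

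Values were read as FPKM, fragments per length and per library size. Column sums ran from 717415 to 830179. In 20 libraries the smallest steps between values implied 25120000 to 35220000 counted fragments, which gave at least 1350 fragments for any member (Sucla2, a counting error of 2.7%). The 4 UUO2 libraries showed no such steps, so their depth is unknown. They also held mt-Rnr1, a mitochondrial ribosomal RNA, at 2342.74 to 2831.55 FPKM against 342.3 to 708.74 in the other 20, so UUO2 and this difference between libraries cannot be told apart. The series' design text names 20 libraries multiplexed over 3 lanes, against the 24 analysed, and does not say which. FPKM is relative to the whole library, and the median gene stood 0.42 higher (log2) in UUO7 than in sham. The counts of members called, and many single values, are therefore also given after rescaling, in which every library was divided by the median, over genes, of its ratio to the geometric mean of the 24 libraries, which brought that shift to 0.01. The fat cell genes Adipoq, Plin1 and Cfd were high in sham replicate 2 and R4W replicates 1 and 3. Adipoq was at 12.54, 79.67 and 25.58 FPKM there, and at 0.79 or lower in the other libraries. UUO7 replicate 3 held Cfd at 12.07 FPKM, against 0.83 or lower in the remaining 20, and had the highest Adipoq (0.79) and Retn (0.88) outside those 3. Of 10 proximal tubule markers, which define the main cell type of the cortex, all 10 had a row, and their summed level in sham was 5990 to 7020 FPKM.

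In sham kidney the 9 levels spread widely, from Mdh1 at 752.9 ± 63.9 FPKM (SD, n = 4) to Idh3a at 57.7 ± 1.99. Mdh2 (366.3 ± 8.11) came next after Mdh1, followed by Idh3g (261.1 ± 10.2), Suclg1 (256.2 ± 9.81), Idh3b (216.9 ± 6.82), Ogdh (133.8 ± 5.38), Sucla2 (102.8 ± 2.46) and Cs (89.1 ± 0.523). Each neighbour in that order was separated by its library ranges, except Idh3g and Suclg1, which overlapped. In UUO7 Mdh1 (262.9 ± 29.6) and Mdh2 (230.1 ± 13.5) overlapped, as did Idh3b with Suclg1 and Suclg1 with Cs. In R4W the 3 highest were again Mdh1 (472.0 ± 54.7), Mdh2 (303.6 ± 12.8) and Idh3g (187.7 ± 5.95), and Idh3a was lowest in all 6 groups.

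**Figure D1:**
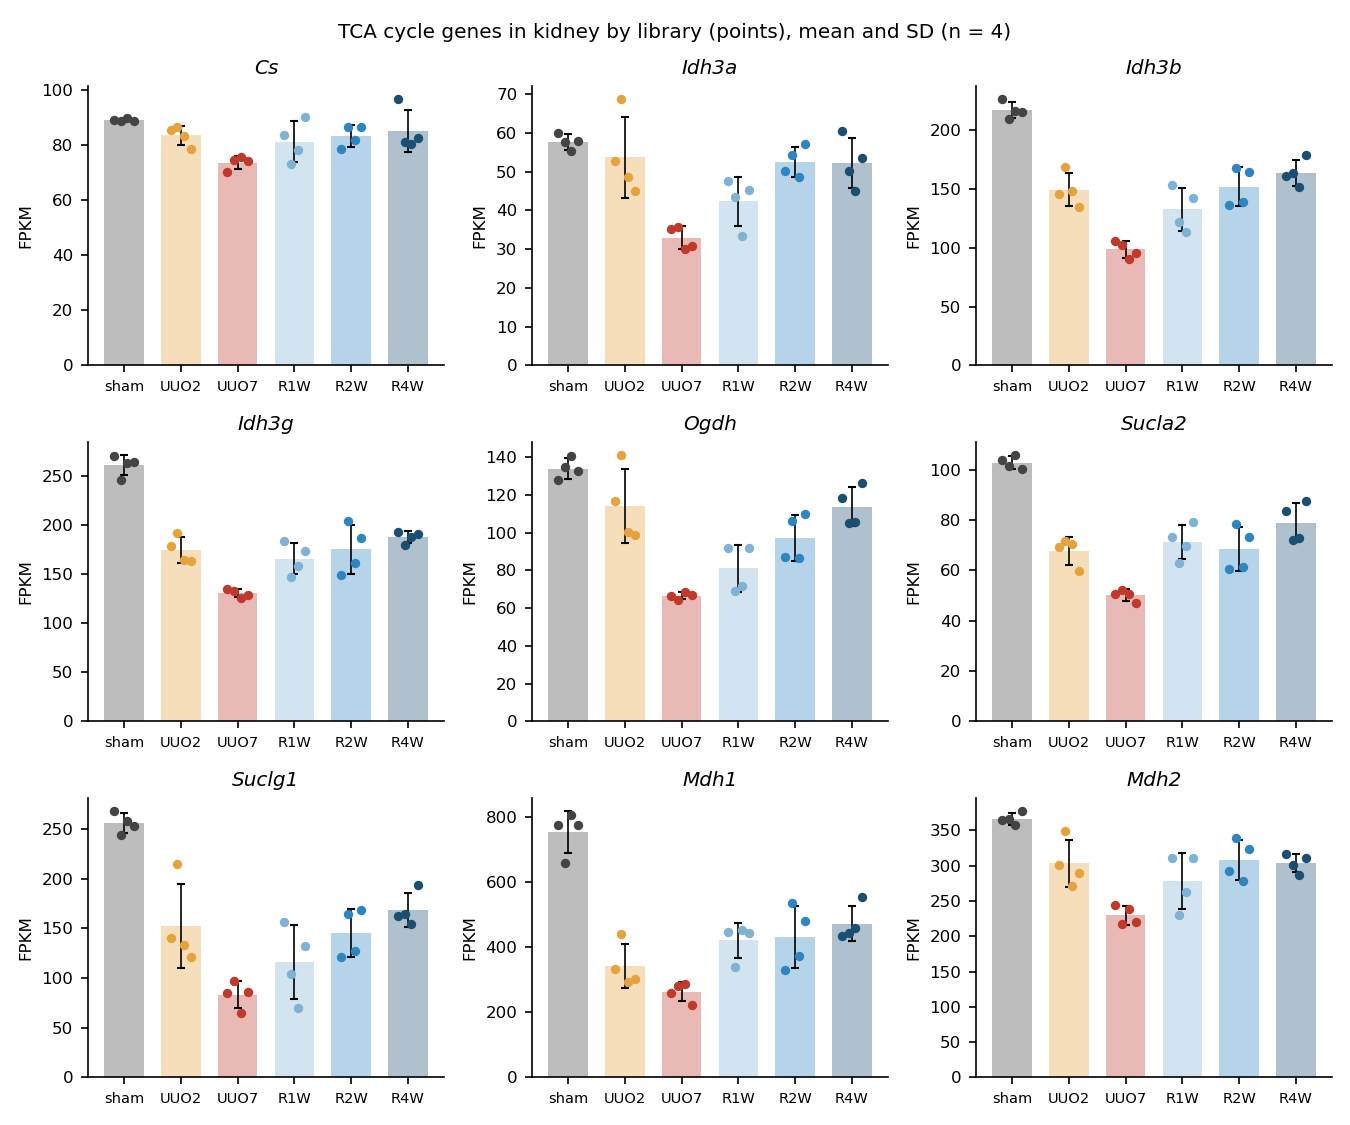
FPKM (y axis, from 0) of the 9 genes in the 24 libraries, by group on the x axis. Points are libraries, bars the mean and error bars the SD (n = 4). In every panel all UUO7 points lie below all sham points and all R4W points lie above all UUO7 points.

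After 7 days of obstruction all 9 genes were lower than in sham kidney. Each was below sham at an adjusted p under 0.05 (limma, adjusted over all genes), where 17.8% of all genes were lower by the same rule. After rescaling all 9 were again lower, against 36.5% of all genes. The median log2 fold change of the 9 was -0.996, against 0.42 for all genes, and -1.48 against 0.01 after rescaling. In all 9 the 4 UUO7 libraries lay below the 4 sham libraries, which held for 16.8% of all genes. In bulk tissue fewer tubule cells and less RNA per cell cannot be told apart.

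Suclg1 had the greatest fall. Its sham libraries held 268.0, 244.6, 258.7 and 253.4 FPKM, and its UUO7 libraries 85.2, 97.5, 64.9 and 86.4. All UUO7 libraries were thus far under the lowest sham library, with replicate 3 the lowest. The log2 fold change was -1.62 (SE 0.20, adjusted p = 2.15e-07), or -2.10 rescaled. That UUO7 replicate 3 had the highest column sum of its group, 802898, and more Cfd than the others, and the part of either in the low value was not tested. Without single libraries the Suclg1 change stayed between -1.70 and -1.51.

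Mdh1, the cytosolic enzyme, fell almost as far. Its level was 773.7, 659.5, 804.5 and 774.0 FPKM in the sham libraries and 260.5, 281.1, 288.1 and 222.1 in the UUO7 libraries. The log2 fold change was -1.52 (SE 0.15, adjusted p = 9.75e-09), or -2.003 rescaled. Mdh2, its matrix counterpart, went from 364.2, 366.0, 357.7 and 377.2 FPKM to 244.7, 216.9, 238.2 and 220.5. All 4 UUO7 libraries of Mdh2 were below sham, yet its log2 fold change of -0.67 (SE 0.09, adjusted p = 9.69e-07) was the smallest of the 9 after that of Cs.

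Cs changed least. Its sham libraries lay close together at 89.0, 88.6, 89.8 and 88.9 FPKM, and its UUO7 libraries held 70.2, 74.5, 75.8 and 74.1. The groups did not overlap, and the log2 fold change was -0.27 (SE 0.07, adjusted p = 0.000694). Rescaling moved it to -0.75.

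The 3 subunits of isocitrate dehydrogenase all fell, and the catalytic alpha subunit fell least. Idh3a went from 60.1, 57.6, 55.2 and 58.0 FPKM in sham to 35.18, 35.7, 29.97 and 30.81 in UUO7. Its log2 fold change was -0.80 (SE 0.12), against -1.13 (SE 0.09) for Idh3b and -0.99 (SE 0.08) for Idh3g. Idh3b ranged over 209.83 to 226.19 FPKM in sham and 90.31 to 105.57 in UUO7, and Idh3g over 246.52 to 270.19 and 125.57 to 135.17. Ogdh reached 49.8% of its sham mean (64.26 to 68.51 FPKM against 127.59 to 140.55) and Sucla2 48.8% (46.97 to 52.34 against 100.2 to 105.68). Their log2 fold changes were -0.996 (SE 0.11) and -1.02 (SE 0.09), with all UUO7 libraries again below sham.

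**Figure D2:**
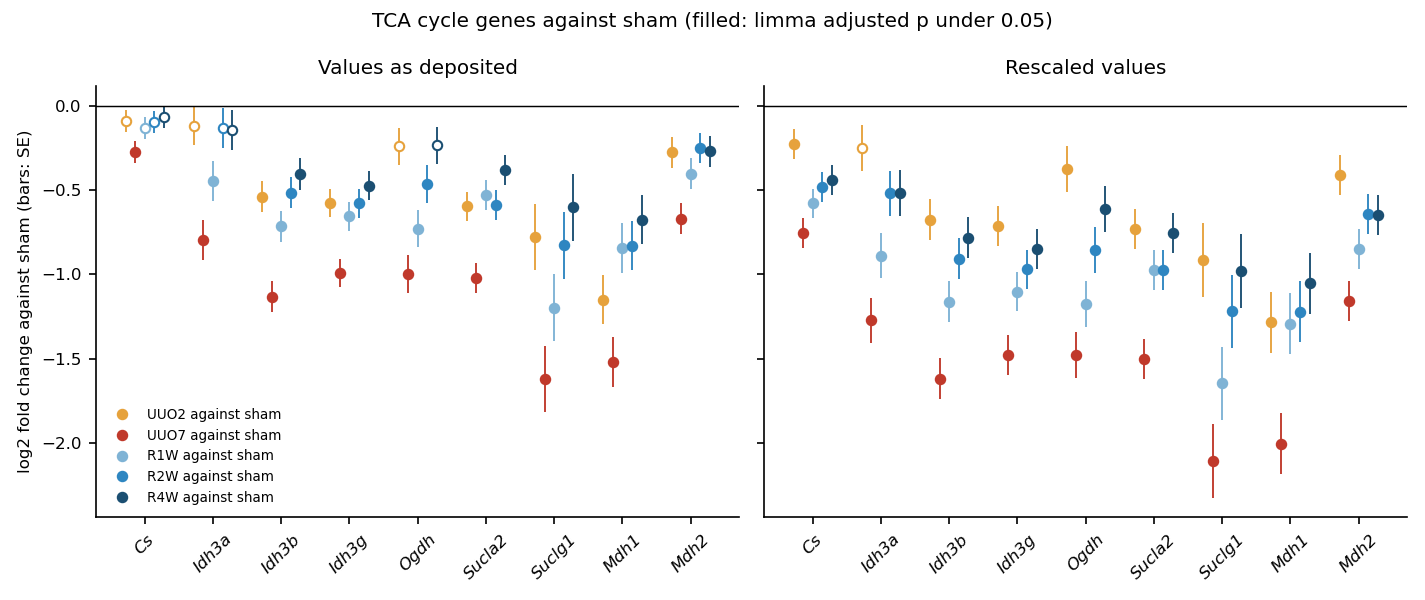
Log2 fold change of each gene against sham (y axis, bars: SE) in the 5 other groups, from values as deposited (left) and rescaled (right). Filled points had a limma adjusted p under 0.05. Every point lies below 0, and Suclg1 (-1.62) and Mdh1 (-1.52) are the lowest in UUO7 as deposited.

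At 2 days of obstruction some of the 9 genes were already lower. Of the 9, 6 were lower than sham, with 17.0% of all genes lower by the same rule, and 8 were lower after rescaling, against 25.5%. Tubule markers were lower in the same libraries, 8 of 10 proximal ones (sums of 2770 to 4180 FPKM against 5990 to 7020 in sham) and 7 of 8 distal ones (864 to 1930 against 2880 to 3050), and their part in the fall was not tested. Mdh1 was at 331.4, 441.0, 294.4 and 303.4 FPKM in UUO2, all under the lowest sham library, with a log2 fold change of -1.15 (SE 0.15, adjusted p = 2.37e-06). This was 75.7% of its log2 fall at 7 days, the highest share of the 9. Sucla2 had 58.5% of its fall in place, Idh3g 58.2%, Suclg1 48.1%, Idh3b 47.7% and Mdh2 41.4%. These 6 were the genes that passed the test, and the shares of the other 3 were 34.2% (Cs), 24.3% (Ogdh) and 14.8% (Idh3a). These shares are descriptions, and differences between them were not tested.

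Idh3a, Ogdh and Cs did not pass. Idh3a read 52.8, 68.7, 48.6 and 44.9 FPKM in UUO2, which overlapped sham, and its log2 difference was -0.12 (SE 0.12, adjusted p = 0.431), with -0.25 (adjusted p = 0.123) rescaled. With single libraries left out it was -0.24 (without UUO2 replicate 2) to -0.039 (without UUO2 replicate 4), not called in any. Ogdh held 116.7, 140.9, 100.2 and 98.9 FPKM, with a difference of -0.24 (SE 0.11, adjusted p = 0.0793). It was called lower after rescaling (adjusted p = 0.0272) and without UUO2 replicate 2 (-0.347), and had an adjusted p of 0.0475 in the authors' deposited table. In that library all 9 genes were at their highest level of the group, for example Suclg1 at 215.0 FPKM against 140.8, 133.0 and 121.6 in the others. The summed proximal tubule markers were also highest there, at 4180 FPKM against 2770 to 3320, and the part of this in the levels was not tested. Cs held 85.6, 86.4, 83.3 and 78.7 FPKM, just below its sham range, with a difference of -0.09 (SE 0.07, adjusted p = 0.248) as deposited and -0.23 (adjusted p = 0.0371) rescaled. In the authors' deposited table Cs was lower than sham (log2 -0.204, adjusted p = 0.0211), while Idh3a had an adjusted p of 0.206. The call of Mdh2 (log2 -0.28, adjusted p = 0.0153) was lost without UUO2 replicate 3.

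Between day 2 and day 7 all 9 genes fell, with 14.7% of all genes lower by this rule and 31.9% rescaled. Ogdh (log2 -0.75, SE 0.11), Idh3a (-0.68, SE 0.12) and Suclg1 (-0.84, SE 0.20) fell most. Mdh1, low by day 2, fell by 0.37 (SE 0.15, adjusted p = 0.0326), and this call was lost without UUO2 replicate 2, UUO7 replicate 1 or UUO7 replicate 4. Cs fell by 0.18 (SE 0.07, adjusted p = 0.0197) and lost its call without UUO7 replicate 1. These comparisons carry the difference between UUO2 and the other libraries given above. All 10 proximal tubule markers were also lower in UUO7 than in UUO2, under both scalings. Of 8 distal ones 1 was lower and 2 were higher as deposited. The part of these markers in the fall of the members was not tested.

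In the first week after reversal 4 of the 9 genes rose, with 6.47% of all genes higher by the same rule and 7.26% rescaled, where the same number of members rose. Mdh1 rose most, to 445.7, 340.1, 453.1 and 444.1 FPKM, each above all UUO7 libraries, with a log2 fold change of 0.67 (SE 0.15, adjusted p = 0.00559). Sucla2 rose by 0.49 (SE 0.09, adjusted p = 0.00169), Idh3b by 0.42 (SE 0.09, adjusted p = 0.00624) and Idh3g by 0.34 (SE 0.08, adjusted p = 0.0117). The other 5 had differences of 0.14 (Cs) to 0.42 (Suclg1) that did not pass the test, although all 9 had an unadjusted p under 0.05. Idh3a (adjusted p = 0.0521) and Mdh2 (0.0531) were called in the limma fits restricted to genes averaging 10 FPKM or more (0.0404 and 0.042) and without the UUO2 libraries (0.0257 and 0.0413). Tubule markers rose in the same comparison, 5 of 10 proximal (3 rescaled) and all 8 distal ones, with sums of 2170 to 3440 and 2170 to 2790 FPKM in R1W, and their part in the rise was not tested.

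Suclg1 in R1W was uneven, at 156.7, 104.3, 70.1 and 132.7 FPKM, so replicate 3 lay inside the UUO7 range while the others were above it. R1W replicate 3 also had the lowest Idh3a (33.3 FPKM against 43.4 to 47.5) and the lowest Idh3b (113.0), but the highest Mdh1 of its group. Its column sum, 830179, was the highest of all 24, and whether that bears on these levels was not tested. Without this library 7 members were called higher, the added ones being Idh3a, Suclg1 and Mdh2.

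By 4 weeks of recovery all 9 genes were above UUO7, against 17.6% of all genes as deposited and 25.1% rescaled. In all 9 every R4W library was above every UUO7 library, as in 17.9% of all genes. Suclg1 rose most, to 162.4, 164.9, 154.4 and 193.8 FPKM, a log2 fold change of 1.02 (SE 0.20, adjusted p = 0.000325). Mdh1 reached 433.9, 442.4, 459.2 and 552.5 FPKM (log2 0.84, SE 0.15, adjusted p = 0.000129). Both were still far from the sham values given above. Ogdh rose by 0.76 (SE 0.11), Idh3b by 0.73 (SE 0.09), Idh3a by 0.65 (SE 0.12), Sucla2 by 0.64 (SE 0.09), Idh3g by 0.52 (SE 0.08) and Mdh2 by 0.40 (SE 0.09). Rescaled, the 9 rises ran from 0.31 (Cs) to 1.125 (Suclg1).

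Cs rose by 0.20 (SE 0.07, adjusted p = 0.0137), the smallest rise. Its R4W libraries held 96.6, 81.0, 80.4 and 82.6 FPKM, of which replicate 1 was above all sham libraries and the other 3 below them. Without that replicate the call of the rise was lost, with a log2 difference of 0.14. It was also lost, at 0.15 (adjusted p = 0.122), without the 3 libraries with fat cell genes, of which R4W replicate 1 is the one with the highest Adipoq.

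From week 1 to week 4 some members passed the test of a further rise. Ogdh (log2 0.49, SE 0.11, adjusted p = 0.00808), Suclg1 (0.59, SE 0.20, adjusted p = 0.0404) and Idh3b (0.31, SE 0.09, adjusted p = 0.027) rose, 3 of 9 against 5.06% of all genes, and the same number rose rescaled, against 8.67%. Ogdh went from 91.8, 69.2, 71.4 and 91.9 FPKM to 118.3, 105.0, 105.4 and 126.4, with no overlap, while Suclg1 and Idh3b overlapped. The other 6 had differences of 0.07 (Cs) to 0.30 (Idh3a, adjusted p = 0.0746). The value of Idh3a was close in size to that of Idh3b, and differences between members were not tested. These calls were weak. None of the 3 passed when only the R1W and R4W libraries were fitted, or without the 3 libraries with fat cell genes (Ogdh log2 0.51, adjusted p = 0.0588). Leaving out R1W replicate 2, R1W replicate 3, R4W replicate 1 or R4W replicate 4 left 1 call, that of Ogdh. Ogdh kept its call with each single library left out (0.421 to 0.555). Suclg1 also lost its call without R4W replicate 2 or R4W replicate 3, and with R4W replicate 2 placed in R2W (adjusted p = 0.0565). Idh3a was called as well without R1W replicate 1 and without the UUO2 libraries (adjusted p = 0.0433). The authors' deposited table gave adjusted p-values of 0.0108 for Ogdh, 0.0457 for Idh3b and 0.0506 for Suclg1. Of 10 proximal tubule markers 6 rose in the same comparison, also rescaled. Of 8 distal ones 1 rose and 1 fell as deposited. The part of these markers in the rise of the members was not tested.

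At 4 weeks after reversal 6 of the 9 genes were still below sham, with 11.6% of all genes lower by the same rule. After rescaling all 9 were lower, against 31.1% of all genes. In 7 genes every R4W library was below every sham library, which held for 11.6% of all genes. Mdh1 differed most (log2 -0.68, SE 0.15, adjusted p = 0.00048), followed by Suclg1 (-0.60, SE 0.20), Idh3g (-0.47, SE 0.08), Idh3b (-0.41, SE 0.09), Sucla2 (-0.38, SE 0.09) and Mdh2 (-0.27, SE 0.09). Without the 3 libraries with fat cell genes Suclg1 (adjusted p = 0.0983) and Mdh2 (adjusted p = 0.088) lost their calls at differences of -0.54 and -0.26.

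Cs, Idh3a and Ogdh were not called at 4 weeks as deposited, and all 3 were called lower after rescaling. Idh3a held 60.5, 50.3, 45.1 and 53.5 FPKM, of which replicate 1 was above all sham libraries and the other 3 below them. Its difference from sham was -0.15 (SE 0.12, adjusted p = 0.28) as deposited and -0.52 (SE 0.13, adjusted p = 0.00227) rescaled. For Cs the values were -0.07 (SE 0.07, adjusted p = 0.357) and -0.44 (SE 0.09, adjusted p = 0.000228). Ogdh lay below sham in every library, at -0.24 (SE 0.11, adjusted p = 0.0677) and -0.61 (SE 0.14, adjusted p = 0.00069). Its call also depends on the fit: as deposited it was called when only sham and R4W were fitted (limma adjusted p = 0.0132), without the UUO2 libraries (adjusted p = 0.0425) and without R4W replicate 4. In the authors' deposited table all 9 genes had an adjusted p under 0.05 for R4W against sham, with log2 fold changes from -0.45 (Cs) to -0.99 (Suclg1).

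At 1 week 8 of the 9 genes were lower than sham (14.7% of all genes; 9 and 34.6% rescaled), and at 2 weeks 7 were (12.9%; 9 and 32.5% rescaled). Idh3a moved from 73.5% of its sham mean at 1 week to 91.1% at 2 weeks and 90.7% at 4 weeks. Sucla2 stood at 69.2% at 1 week and 66.6% at 2 weeks. The 2-week call of Mdh2 (log2 -0.25, adjusted p = 0.0187) was lost without R2W replicate 1 or R2W replicate 3, and Cs was called at 1 week without R1W replicate 4. In the authors' deposited table none of the 9 had an adjusted p under 0.05 between 1 and 2 weeks or between 2 and 4 weeks.

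The share of the log2 fall regained by 4 weeks ran from 52.2% in Idh3g to 81.7% in Idh3a. Mdh1 had regained 55.5%, Mdh2 59.6%, Sucla2 62.7%, Suclg1 62.8%, Idh3b 64.1%, Cs 74.8% and Ogdh 76.3%. After rescaling the shares were lower, from 41.4% (Cs) to 59.4% (Idh3a). These shares are descriptions with no test.

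Because both genes of a ratio come from the same library, a ratio does not depend on the scaling. Each of 4 ratios was compared by 2-sided exact permutation tests of 4 against 4 libraries in 3 comparisons, 12 tests in all, whose smallest possible p is 0.0286. Mdh2 against Mdh1 moved most. The matrix enzyme's FPKM was 0.471, 0.555, 0.445 and 0.487 times that of the cytosolic enzyme in sham, and 0.939, 0.772, 0.827 and 0.993 times in UUO7. All UUO7 ratios were above all sham ratios, a log2 difference of 0.85 (exact permutation p = 0.0286, adjusted over the 12 tests 0.049).

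In R4W the Mdh2 to Mdh1 ratio was 0.728, 0.682, 0.624 and 0.562, below every UUO7 library and above every sham library. The log2 difference was -0.44 from UUO7 and 0.41 from sham, each at an exact permutation p of 0.0286 (adjusted 0.049). In UUO2, which was not tested, the ratio was already 0.794 to 0.956.

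Within isocitrate dehydrogenase the alpha subunit gained on the other 2. The Idh3a to Idh3b ratio was 0.266, 0.275, 0.255 and 0.269 in sham, 0.333, 0.348, 0.332 and 0.322 in UUO7, and 0.376, 0.308, 0.297 and 0.299 in R4W. Both later groups lay wholly above sham, with log2 differences of 0.33 and 0.26 (exact permutation p = 0.0286, adjusted 0.049 each). Between R4W and UUO7, which overlapped, the difference was -0.07 (exact permutation p = 0.486, adjusted 0.514). The Idh3a to Idh3g ratio was also above sham, by 0.18 in UUO7 and 0.33 in R4W (exact permutation p = 0.0286, adjusted 0.049 each).

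For succinyl-CoA ligase the balance of the ADP-forming and GDP-forming beta subunits showed no difference that passed the test between sham, UUO7 and R4W. The Sucla2 to Suclg2 ratio had a mean of 0.579 ± 0.0162 (SD, n = 4) in sham kidney. It was 0.607 ± 0.0605 after 7 days of obstruction and 0.630 ± 0.0507 at 4 weeks of recovery. Log2 differences were 0.06 for UUO7 against sham (exact permutation p = 0.514) and 0.12 for R4W against sham (p = 0.0857, adjusted 0.129). The other groups were not tested. In UUO2 the ratio was 0.416 to 0.445, below all 20 other libraries. In R1W it was 0.648 to 0.747 and in R2W 0.605 to 0.701, both above the sham range of 0.562 to 0.601. None of the 7 ratio differences called keeps its call with 1 library left out. A permutation test of 3 against 4 libraries cannot reach a p under 0.05. Comparisons left at 4 against 4 kept their exact permutation p of 0.0286 and still lost the call. The adjusted 0.049 was reached only because 7 of the 12 tests stood at the smallest possible p together.

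**Figure D3:**
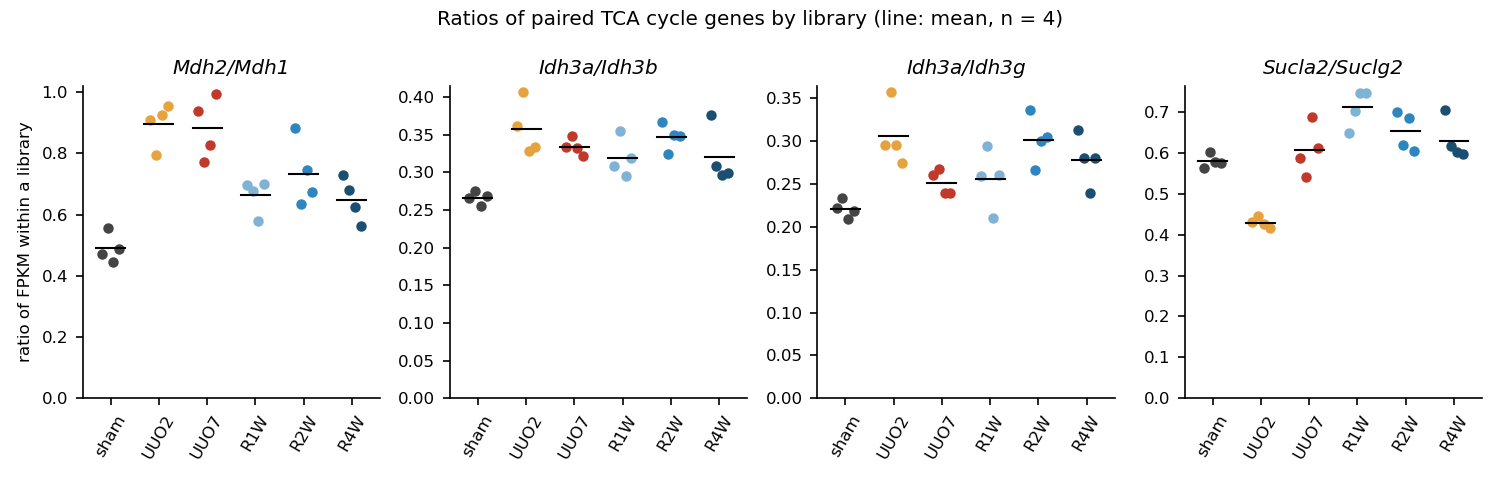
Ratio of the FPKM of 2 genes within each library (y axis, from 0) by group, for Mdh2 to Mdh1, Idh3a to Idh3b, Idh3a to Idh3g and Sucla2 to Suclg2. Points are libraries and lines are means (n = 4). The Mdh2 to Mdh1 ratio is 0.445 to 0.555 in sham and 0.772 to 0.993 in UUO7.

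Of 10 other TCA cycle genes all 10 were lower in UUO7 and in R4W than in sham, where 17.8% and 11.6% of all genes were lower. Their medians were -0.86 and -0.40, against 0.42 and 0.30 for all genes. Rescaled, all 10 were again lower in both (36.5% and 31.1% of all genes), with medians of -1.34 and -0.77. In UUO2 8 of the 10 were below sham (17.0% of all genes), and from UUO7 to R4W 8 rose (17.6%). From R1W to R4W limma called 0 of the 10 higher (1 at an unadjusted p under 0.05, median 0.05), near the 5.06% of all genes (8.67% rescaled). The difference from the members, whose 3 calls in this comparison were weak, was not tested. Sdha, the flavoprotein of succinate dehydrogenase, fell by 0.84 on the log2 scale in UUO7 (adjusted p = 5.48e-08), and its R4W difference from sham was -0.38 (adjusted p = 0.00135).

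Not every one of the 10 was called at each step. Fh1, fumarase, held 159.0, 139.1, 148.6 and 153.4 FPKM in sham, 96.7, 101.9, 110.5 and 85.7 in UUO7, and 96.6, 110.4, 102.8 and 114.4 in R4W. Its UUO7 and R4W libraries overlapped, with a difference of 0.11 (adjusted p = 0.494), and it was not called higher in R4W under either scaling. In the authors' deposited table Fh1 was higher in R4W than in UUO7 (log2 0.509, adjusted p = 3.91e-07). Idh2, the mitochondrial NADP-dependent enzyme, was at 195.3, 230.3, 178.5 and 179.9 FPKM in UUO2 and 206.1, 196.3, 212.4 and 181.9 in UUO7, against 345.12 to 376.65 in sham. Its log2 difference between the 2 times was 0.03 (adjusted p = 0.819) as deposited and -0.32 rescaled, where it was called lower. In the authors' deposited table Idh2 was lower in UUO7 than in UUO2 (log2 -0.602, adjusted p = 4.43e-06). Sdhc, a membrane subunit of succinate dehydrogenase, was also not called between these times as deposited (0.04, adjusted p = 0.74), at means of 186.2 and 192.3 FPKM.

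The list of pyruvate entry and its control holds 13 genes, both enzymes that pass pyruvate to the cycle and the kinases and phosphatases of pyruvate dehydrogenase. In UUO7 10 of the 13 were lower than sham and 2 higher (median -0.70), where 17.8% of all genes were lower and 60.1% higher. From UUO7 to R4W 10 rose and 1 fell, against 17.6% and 30.8% of all genes. Rescaled, 11 were lower and 2 higher in UUO7 (median -1.17), and again 10 rose and 1 fell to R4W. The rescaled shares of all genes were 36.5% lower and 36.5% higher in UUO7, and 25.1% rising and 23.2% falling to R4W. Pcx, pyruvate carboxylase, which makes oxaloacetate from pyruvate, held 191.0, 197.5, 210.7 and 178.1 FPKM in sham and 34.0, 37.3, 22.7 and 25.7 in UUO7. Its log2 fold change of -2.68 (adjusted p = 2.21e-09, -3.16 rescaled) exceeded that of any of the 9. In R4W it was at 132.4, 91.3, 102.2 and 116.4, above UUO7 and below sham in every library (log2 -0.82 from sham, adjusted p = 0.00422).

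The 4 kinases that switch pyruvate dehydrogenase off differed in direction. Pdk2 fell from a mean of 113.0 FPKM in sham to 53.86 in UUO7 (log2 -1.06, adjusted p = 2.15e-06), and Pdk3 from 23.59 to 15.79 (log2 -0.56, adjusted p = 6.47e-05). Pdk1, at 10.02 and 8.93 FPKM, was not called as deposited (log2 -0.16, adjusted p = 0.362) and was called lower rescaled (-0.60). Pdk4 rose. It held 6.29, 10.8, 5.58 and 6.04 FPKM in sham and 17.2, 22.2, 18.2 and 19.6 in UUO7 (log2 1.35, adjusted p = 0.000859, 0.91 rescaled). In R4W it was at 4.18 to 12.34 FPKM, a log2 difference of -1.27 from UUO7 (adjusted p = 0.00342). Mpc1, a subunit of the mitochondrial pyruvate carrier, fell by 1.27 in UUO7 (adjusted p = 3.89e-09, -1.75 rescaled).

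Of 11 genes of the malate-aspartate shuttle and cytosolic partners, 9 were lower in UUO7 than in sham (17.8% of all genes) and 0 higher by limma (0 at an unadjusted p under 0.05, where 60.1% of all genes were higher), with a median of -0.61. Rescaled, all 11 were lower (36.5% of all genes), with a median of -1.09. The greatest changes were those of Me1, cytosolic malic enzyme (-1.61), Slc25a13, an aspartate-glutamate carrier (-1.56), and Aco1, cytosolic aconitase (-1.08). From UUO7 to R4W 7 of the 11 rose (17.6% of all genes). In R4W 4 were lower than sham and 1, Acly, higher, against 11.6% and 54.8% of all genes, with 9 lower and 0 higher rescaled (0 higher at an unadjusted p under 0.05), where 31.1% of all genes were lower and 28.9% higher. Acly, ATP citrate lyase, held 105.37, 46.38, 50.88 and 45.74 FPKM in R4W against 34.19 to 49.4 in sham. Replicate 1, the library with the highest fat cell genes, stood far above the others. The log2 difference of 0.52 (adjusted p = 0.0149) was 0.24 and lost its call without that library (adjusted p = 0.0565). It was also lost without sham replicate 4 (0.44, adjusted p = 0.0525), in a fit of the 2 groups only (adjusted p = 0.11) and rescaled (0.15). Without the 3 libraries with fat cell genes it was 0.28 and kept its call (adjusted p = 0.0335).

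Among 11 regulators of mitochondrial genes 9 were lower and 1 higher in UUO7 than in sham (median -0.61), against 17.8% and 60.1% of all genes, and rescaled 10 were lower and 1 higher (median -1.09), against 36.5% each way. Ppara, a nuclear receptor for fatty acids, fell by 1.77 (adjusted p = 1.08e-06), Esrrb, an oestrogen-related receptor, by 1.25 (adjusted p = 1.25e-05), and Ppargc1b, a coactivator, by 1.01 (adjusted p = 1.78e-08). Ppargc1a, the coactivator PGC-1alpha, held 7.99, 8.80, 9.07 and 10.3 FPKM in sham, 4.60, 4.89, 4.96 and 5.17 in UUO7, and 8.15, 8.19, 7.31 and 8.88 in R4W. It fell by 0.76 (adjusted p = 2.36e-05) and rose by 0.63 from UUO7 to R4W, and its R4W and sham ranges overlapped (-0.13, adjusted p = 0.379; -0.47 and called lower rescaled). Esrra, another oestrogen-related receptor, fell by 0.61 (adjusted p = 9.37e-05). Nrf1, whose motif is shown above, was 0.63 higher in UUO7 (adjusted p = 1.54e-07) and 0.20 higher rescaled, where it was also called.

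For genes of the mitochondrial outer membrane and protein import the direction depends on the scaling. In UUO7 against sham 4 of 10 were higher and 3 lower as deposited (median 0.03), where 60.1% of all genes were higher and 17.8% lower. Rescaled, 7 were lower (median -0.46) and limma called 0 higher (0 at an unadjusted p under 0.05), where 36.5% of all genes were lower and 36.5% higher. In R4W against sham 4 were lower and 1 higher as deposited (median -0.09), against 11.6% and 54.8% of all genes, and 9 were lower rescaled (median -0.45, 31.1% of all genes). Their difference from the 9 members was not tested. Tomm22, an import receptor, was 0.59 higher as deposited (adjusted p = 2.75e-07) and not called rescaled (0.11). Vdac1, the main outer membrane channel, fell under both (-0.59 and -1.08), while Vdac3 was 0.56 higher and not called rescaled (0.08). From UUO7 to R4W 1 of the 10 rose and 6 fell, where 17.6% of all genes rose and 30.8% fell, with 3 and 3 rescaled, where 25.1% rose and 23.2% fell.

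**Figure D4:**
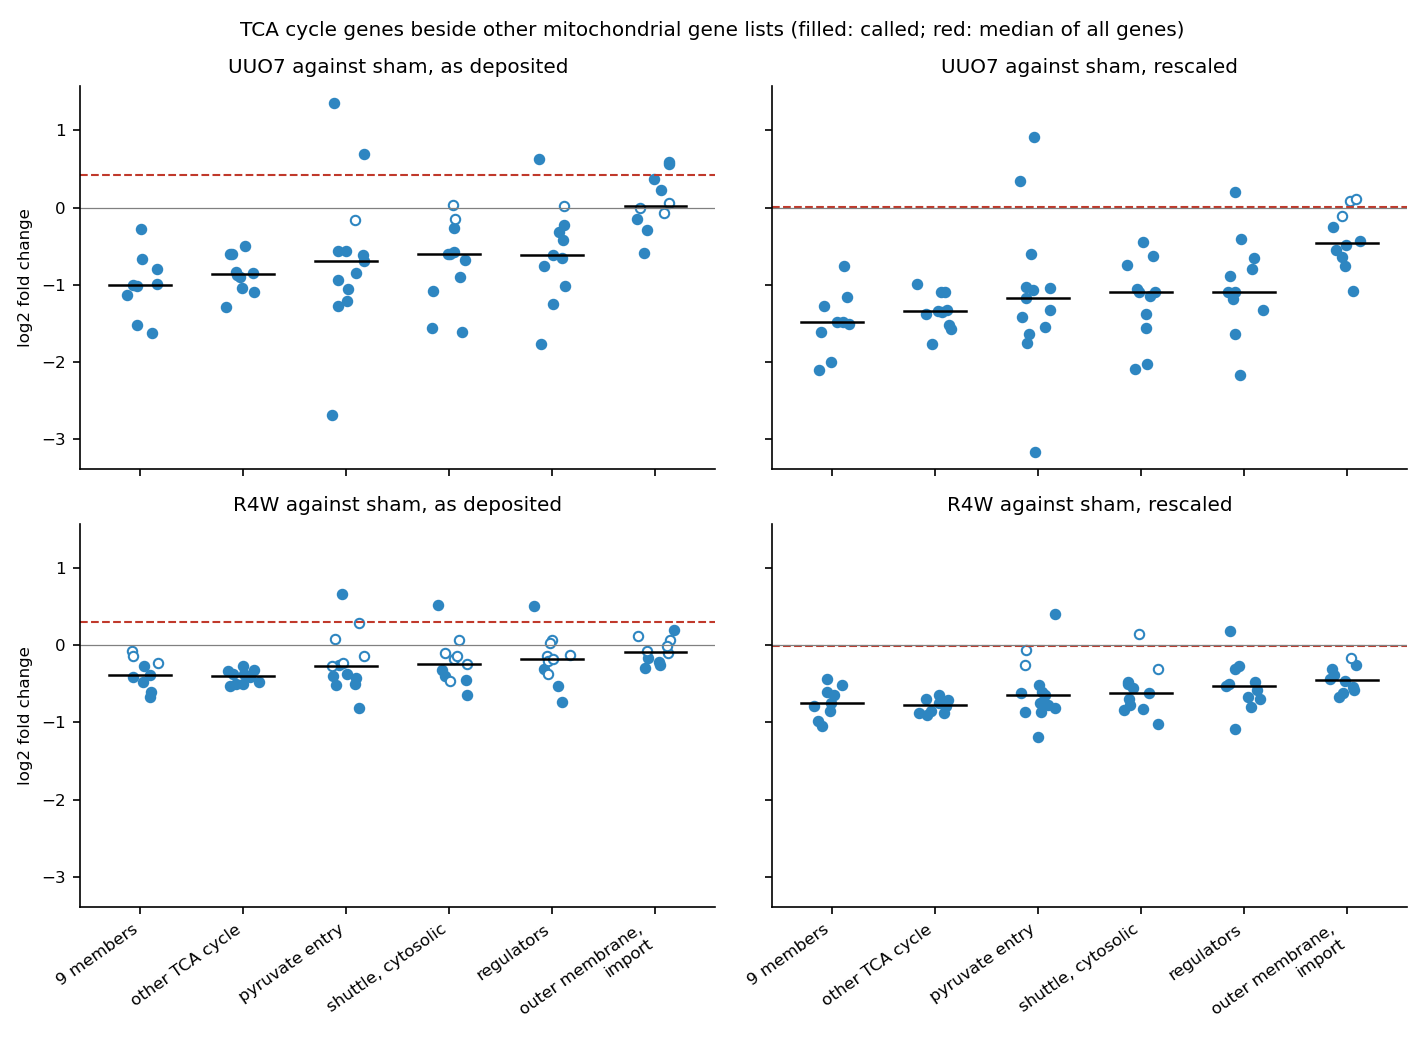
Log2 fold change (y axis) of single genes in the 9 members and 5 other gene lists (x axis), for UUO7 and R4W against sham, as deposited (left) and rescaled (right). Filled points were called, black lines are list medians and the dashed red line is the median of all 14785 genes. The 9 members have medians of -0.996 and -0.38 as deposited, against 0.42 and 0.30 for all genes.

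Markers of cell types moved in the same libraries. The summed FPKM of the 10 proximal tubule markers was 1580 to 2050 in UUO7 and 3240 to 4300 in R4W, against 5990 to 7020 in sham, so it fell and partly rose as the 9 genes did. The 8 thick ascending limb and distal markers summed to 2880 to 3050 in sham, 1270 to 1650 in UUO7 and 2290 to 3240 in R4W. In UUO7 all 10 proximal markers and 7 of the 8 distal ones were lower than sham, and 1 distal marker was higher, with the same counts rescaled, where 17.8% of all genes were lower as deposited and 36.5% rescaled. The 10 macrophage markers summed to 57.4 to 101 in sham, 1230 to 1460 in UUO7 and 807 to 1600 in R4W, and the 8 fibroblast markers to 33.4 to 79.7, 664 to 840 and 282 to 444. All of these were higher in UUO7 than in sham, where 60.1% of all genes were (36.5% rescaled). Of 8 endothelial markers 7 were higher (6 rescaled), with sums of 87.2 to 163 in sham and 258 to 278 in UUO7. All 7 lymphocyte markers with a row were higher, with sums of 1.94 to 2.98 FPKM in sham and 17.4 to 31.1 in UUO7. Of the 6 urothelium markers 3 were higher in UUO7 (1 rescaled), with sums of 1.71 to 95.1 in sham, 33.4 to 63.6 in UUO7 and 73.2 to 265 in R4W. Of the 7 adipose markers with a row 1 (Fabp4) was higher and 1 (Pck1) lower in UUO7, and rescaled the call of Fabp4 was lost. Their sums were 556 to 1110 in sham, 237 to 311 in UUO7 and 357 to 2140 in R4W, but they say little of fat, since Pck1, which proximal tubule cells also express, gave 510.78 to 812.12 FPKM in sham and 100.99 to 155.98 in UUO7. In UUO7 Adipoq was at 0.79 FPKM or lower, Retn at 0.88 or lower and Plin1 at 0.06 or lower, while Cfd was at 12.07 in replicate 3 and 0.09 or lower in the other 3. The part of these shifts in the levels of the 9 genes was not tested.

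The 9 genes varied together over the 24 libraries. Among their 36 pairs Pearson's r of log2(FPKM + 1) ran from 0.675 (Idh3a and Mdh1) to 0.972 (Suclg1 and Idh3b), with a median of 0.884. Rescaled, the median was 0.949. The libraries share the 6 groups, so these values describe the course of the groups as much as single animals.

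Outside the gene lists, 8 genes had the profile most like the mean of the 9 over the 24 libraries, with r from 0.980 to 0.986. They were Sgk2, a kinase, Slc6a20b, an amino acid transporter, Sord, sorbitol dehydrogenase, Cat, catalase of peroxisomes, Bpnt1, a nucleotidase, Abat, GABA transaminase, Gstz1, of tyrosine breakdown, and Aldh9a1, an aldehyde dehydrogenase. Sord went from 662 ± 37.9 FPKM in sham to 149 ± 18.3 in UUO7 and 416 ± 52.7 in R4W, and Cat from 356 ± 23.4 to 109 ± 12.1 and 239 ± 13.0. In the 20 libraries outside UUO2 only 2 of these 8 (Sgk2 and Cat) were again among the 8 most alike, and Atp5b, a subunit of ATP synthase, came first at 0.992. Rescaled, 3 of the 8 (Cat, Bpnt1 and Gstz1) were among them. Many genes thus lay nearly level in this measure.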

How the data were processed

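The authors deposited 1 table of 14785 genes with a value for each of 24 libraries. Per the submitters' processing notes FastQC, Bowtie2, RSEM, DESeq2 and mm10 were used. The unit is not given in the sources used here. FPKM was inferred from the values as deposited, since column sums differ (highest to lowest 1.157) and sums weighted by transcript length differ less (1.077). The authors' deposited table also holds log2 fold changes and adjusted p-values for 15 comparisons. Those log2 values had a slope of 0.65 to 0.78 against the sample columns, from which their direction was read.

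The main test was limma's moderated linear model (version 3.58.1, R 4.3.3, trended prior) of log2(FPKM + 1) over all 24 libraries. A call needed p under 0.05 after Benjamini-Hochberg adjustment over 14785 genes, with no minimum change. Fold changes on this scale understate those of low genes. SD is over libraries, and SE is limma's moderated standard error. Ratios of 2 genes were compared by exact permutation with Python 3.11.15 and scipy 1.17.1. Groups and replicate numbers came from the sample titles. Tested on simulated data for UUO7 against sham (14785 genes), the fit recovered 183 of 200 changed genes, 84 of 100 at a log2 change of 1 and 99 of 100 at 2, with 10 false calls. The simulated noise was independent between genes, and no shift between libraries was simulated. In the real comparison 17.8% of all genes were lower and 60.1% higher, so these rates need not hold there.

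The members, gene lists and tests were chosen with earlier results of these data known. Within each other list up to 3 called genes of greatest absolute change per comparison could be named, plus fixed ones (Pdk4, Pcx, Ppargc1a, Esrra, Idh2, Sdha and Fh1; 1 more is not reported here). Nrf1, mt-Rnr1, Pdk1, Pdk2, Pdk3, Sdhc, Idh1 and the single fat cell genes were chosen once values were known. The 9 members have the same coordinates in the GENCODE annotation of GRCm38 used here. Alternatives were a rescaling, pseudocounts of 0.1 and 10, a mean of at least 10 FPKM, fits of 2 groups or without UUO2, a replicate block, R4W replicate 2 in R2W, stricter thresholds, and leaving out each library. Leaving out 3 libraries with fat cell genes was added after seeing the data.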

Additional observations from a re-analysis of the deposited data

Results flagged for a closer look

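In 3 of 78 groups of 4 libraries 1 library stood apart from the other 3 by Dixon's test, and chance flags about 1 in 20 groups (3.9 of 78). R4W replicate 1 held Cs at 96.62 FPKM, against 80.39 to 82.56 in the other R4W libraries. The same library had an Idh3a to Idh3b log2 ratio of -1.41, the highest of its group. Without it the log2 difference of this ratio between R4W and sham was 0.18 rather than 0.26. It was also the library with the highest fat cell genes (Adipoq 79.67 FPKM), and the part of this was not tested. R1W replicate 2 held Mdh1 at 340.14 FPKM, against 444.07 to 453.13 in the other R1W libraries.

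Got1, the cytosolic aspartate aminotransferase of the malate-aspartate shuttle, was the 1 gene of 64 pathway genes checked whose 4 UUO2 libraries all lay on one side of the sham range and whose 4 UUO7 libraries all lay on the other. It held 66.1, 76.6, 60.2 and 57.6 FPKM in UUO2, all above the sham range of 46.92 to 49.26, and 41.0, 36.8, 42.4 and 40.3 in UUO7, all below it. The limma log2 difference of UUO7 from UUO2 was -0.679. Idh1, the cytosolic NADP-dependent isocitrate dehydrogenase, had means on both sides of sham too (148.9 FPKM in sham, 186.8 in UUO2 and 97.61 in UUO7), but its UUO2 and sham libraries overlapped. The UUO2 libraries differ from the others as described in the report.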

How the results depend on the processing

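No direction of any of the 9 genes reversed in any alternative run, and all 9 stayed lower in UUO7 than in sham at adjusted p under 0.05 in every fit that kept this rule without a minimum fold change. With a required log2 change of 0.5 or more in size the number of members called was 4 for UUO7 against UUO2 (7.6% of all genes in that direction), 1 for R1W against UUO7 (3.61%), 1 for R4W against R1W (2.15%) and 2 for R4W against sham (5.35%). R4W against R1W gave 0 members in a fit of the 2 groups only (4 at an unadjusted p under 0.05), 1 at adjusted p under 0.01 (1.06% of all genes), and 0 without the 3 libraries with fat cell genes (3 unadjusted). With each library left out in turn it gave 1 to 4 members, and R1W against UUO7 gave 4 to 7, with 7 without R1W replicate 3. Over the same fits UUO2 against sham gave 5 to 7, UUO7 against UUO2 7 to 9, R4W against UUO7 8 to 9 and R4W against sham 6 to 7.

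Of the 12 ratio tests 7 were called, and 0 (0 to 0) with any library left out. A test of 3 against 4 libraries cannot reach 0.05, and those left at 4 against 4 lose their call in the adjustment. With R4W replicate 2 in R2W 0 were called (3 unadjusted), and Suclg1 lost its R4W against R1W call (adjusted p = 0.0565). Without the 3 libraries with fat cell genes 0 ratio tests were called (0 unadjusted). The groups that remain are too small for any of these tests to reach 0.05, so this run cannot show a dependence on those libraries. The Sucla2 to Suclg2 difference between R4W and UUO7 was 0.06, and -0.00047 to 0.116 with single libraries left out, reversed without R4W replicate 1. Blocking on the replicate number (replicate block) moved no count of members by over 1.5 times. In the ratio tests the replicate block gave 0 calls (0 unadjusted), a design of 4 pairs that cannot reach 0.05. The numbers come from the titles and do not show that libraries are paired: the mean correlation of same-numbered deviations was -0.17 to 0.15, and in no comparison were all pairs over 0.1. Over single results, 1439 kept direction and call, 137 lost the call, 25 gained it and 1 reversed. The depth of the UUO2 libraries is unknown.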
